A study of Mus musculus with 536 samples.

Results

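The mitotic genes described here are 38 mouse genes whose products drive or mark cell division, followed in whole blood after total body irradiation. They were chosen as a fixed list of mitosis genes, and each gene was represented by the probe set that had the highest mean across arrays. All 38 listed genes were on the array, out of 12393 genes measured. The rule itself uses no difference between groups, but the list was drawn up with earlier results of these data known.

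Mitosis begins when cyclin and cyclin-dependent kinase complexes switch on, continues with chromosome condensation and capture by the spindle, and ends when a ubiquitin ligase destroys cyclins and securin. Many of these genes are transcribed only late in the cell cycle, so their messenger RNA marks cycling cells. Mature white cells in blood rarely divide, and reticulocytes carry transcripts left from their dividing marrow precursors. Irradiation stops dividing marrow cells, and p53 activation represses many mitotic genes.

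The animals were female and male C57BL/6 mice of 10 to 12 weeks, exposed to Cs137 gamma rays at 480 cGy/min or left at 0 cGy. Blood was taken by terminal cardiac puncture into PAXgene tubes, depleted of globin transcripts and hybridised to Affymetrix Mouse 430A 2.0 arrays. There were 534 mice in 109 groups and 4 sets.
The dose and time set held 240 mice, 5 in each of 48 groups, at 0 cGy or at 100, 200 or 300 cGy, 450 or 600 cGy, and 800 or 1050 cGy, bled at 6, 24, 48, 72, 120 and 168 hr, with no agent and with sex not given per mouse. In the treatment set 111 female and 115 male mice, in 48 groups of 3 to 5, received none, GCSF (granulocyte colony-stimulating factor) or LPS (lipopolysaccharide, a bacterial endotoxin) at 0, 200, 300 or 600 cGy and were bled at 6 or 24 hr. A small treatment set had 9 groups of 5 or 6 mice (50 in all), with the same agents at 0, 150 or 600 cGy and 6 hr. A small 7 day set consisted of 18 mice, with 10 at 150 cGy and 3 at 0 cGy bled at 168 hr, with further 0 cGy mice at 6 hr (3) and 24 hr (2). Sex is not given per mouse in either small set. When the agents were given relative to irradiation is not given in the sources used here.
Values are log2 RMA signals, differences are log2 differences, and ± is the standard error. Whole blood is a mixture, so fewer cells of a type and less RNA per cell cannot be told apart. The p-values measure the spread between mice labelled as replicates of a group. Comparisons within a set and time share the same 0 cGy mice. The median difference over all genes was itself over 0.1 from 0 in a few comparisons described here: 0.13 for the trend at 6 hr, 0.17 at 120 hr and 200 cGy, 0.16 and -0.13 at 168 hr and 450 or 1050 cGy, in the dose trends under GCSF (0.13) and LPS (0.12) at 6 hr, and between the slopes of the sexes at 6 hr (-0.12).

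Some mice stood apart. The liver transcript Alb was at 10 or more in 5 of 5 mice at each of 450, 600, 800 and 1050 cGy at both 120 and 168 hr, but in 0 to 2 of 5 at the lower doses of those times. It also reached 10 in 3 of 5 unirradiated mice at 24 hr. Cdkn1a, a p53 target that arrests the cell cycle, was between 6.67 and 7.21 at 0 cGy and 24 hr and between 9.35 and 10.32 at 300 cGy, but between 7.50 and 9.19 in the mice labelled 800 cGy at 24 hr. In the mice labelled 1050 cGy at 24 hr, 1 mouse had Alas2, which starts haem synthesis in developing red cells, at 7.46, and the other mice were between 14.13 and 14.33. The trends were also fitted without these mice, keeping groups of at least 2. All mice had Alb of 10 or more at 300 cGy and 24 hr, and at 450 cGy and above at 120 and 168 hr. So did 4 of 5 at 450 and 600 cGy (24 hr), 200 and 1050 cGy (48 hr) and 600 cGy (72 hr). In these groups no value without such arrays exists.

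The start sites of these genes are shown because promoters of mitotic genes often carry a CCAAT box and a cell cycle homology region, whose core is TTTGAA. Of the 38 genes, 33 matched a RefSeq promoter on GRCm38.p6, and Aurkb, Foxm1, Tpx2, Ccna2 and Kif20a did not. In the 250 bases before the start, read on both strands, TTTGAA occurred in 13 of the 35 promoters of these genes (37.1%) and in 16% of all 32851 promoters. The pentamer CCAAT occurred in 26 of 35 (74.3%) and in 33.8% of all promoters. Both occurred in 11 of 35 (31.4%) and in 5.55% of all promoters. A match is a description of the letters. The first 4 genes in list order that hold both are printed 5′ to 3′ along the gene, with TTTGAA and CCAAT of either strand in capitals.
Mki67, minus strand, chr7:135716380-135716629: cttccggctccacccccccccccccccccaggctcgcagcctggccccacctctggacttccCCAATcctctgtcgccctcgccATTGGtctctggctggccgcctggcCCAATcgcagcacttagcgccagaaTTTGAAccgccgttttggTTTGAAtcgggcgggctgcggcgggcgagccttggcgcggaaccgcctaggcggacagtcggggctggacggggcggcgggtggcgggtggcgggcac
Top2a, minus strand, chr11:99024190-99024439: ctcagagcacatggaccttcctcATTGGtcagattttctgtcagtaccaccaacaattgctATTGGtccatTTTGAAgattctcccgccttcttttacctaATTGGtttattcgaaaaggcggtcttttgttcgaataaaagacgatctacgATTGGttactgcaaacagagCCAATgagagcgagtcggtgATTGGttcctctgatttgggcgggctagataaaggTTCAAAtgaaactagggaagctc
Ccnb2, minus strand, chr9:70421555-70421804: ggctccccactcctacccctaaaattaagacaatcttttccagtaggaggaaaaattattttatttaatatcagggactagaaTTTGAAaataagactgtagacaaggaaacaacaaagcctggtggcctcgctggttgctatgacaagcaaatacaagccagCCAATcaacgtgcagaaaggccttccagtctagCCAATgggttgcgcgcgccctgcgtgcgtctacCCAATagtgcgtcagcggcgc
Cdk1, minus strand, chr10:69352913-69353162: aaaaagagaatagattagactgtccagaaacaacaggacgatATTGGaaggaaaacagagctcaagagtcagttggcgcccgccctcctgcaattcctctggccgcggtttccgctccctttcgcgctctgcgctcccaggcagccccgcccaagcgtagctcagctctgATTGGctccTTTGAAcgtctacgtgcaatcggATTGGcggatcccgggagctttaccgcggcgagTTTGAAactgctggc
These sequences lie just upstream of the start of genes for a proliferation marker (Mki67), the enzyme that untangles sister chromosomes (Top2a), a mitotic cyclin (Ccnb2) and the kinase that mitotic cyclins activate (Cdk1). Their transcripts did not follow dose alike, as the values below show.

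At 6 hr after irradiation few of these genes followed dose. A trend is the slope of the group means on dose, called at an adjusted p of 0.05 (limma, Benjamini-Hochberg over all genes), and the difference printed with it is the mean at 600 cGy minus that at 0 cGy. Of the 38 genes 6 rose and 2 fell, where 16.2% of all 12393 genes rose and 18.5% fell. The split was 5 and 3 under quantile normalisation, and 6 and 0 with arrays centred on their median. Cks2, a small partner of Cdk1, was at 7.35, 7.54, 7.56, 7.87 and 8.05 in the unirradiated mice and at 8.36, 8.48, 8.79, 8.98 and 9.03 at 600 cGy. The groups did not overlap, and the difference was 1.05 ± 0.24 (adjusted p of the trend 1.41e-10, limma).
Plk1, a kinase of mitotic entry, was at 5.34, 5.52, 5.64, 5.69 and 6.02 at 0 cGy and at 6.22, 6.41, 6.48, 6.67 and 6.89 at 600 cGy. It rose by 0.89 ± 0.17 (adjusted p 0.000235, limma). Cdca5, which guards sister chromatid cohesion, and Kif23, a kinesin of the cleavage furrow, each rose by 0.44. Bub1b, a spindle checkpoint kinase, and Nuf2, part of the kinetochore complex that grips microtubules, were the other two that rose. The checkpoint protein gene Mad2l1 fell by 0.52 ± 0.17 and Racgap1, which organises the central spindle, fell by 0.43 ± 0.17.
The proliferation marker Mki67 was 0.51 ± 0.31 higher at 600 cGy, with a slope near 0 (adjusted p 0.974, limma). Ccnb2 differed by 0.08 ± 0.28 (adjusted p 0.248), Ube2c, the ubiquitin-conjugating enzyme that ends mitosis, by 0.04 ± 0.49 (adjusted p 0.944), and Birc5 (survivin), which positions the chromosomal passenger complex, by 0.25 ± 0.25 (adjusted p 0.677). The B cell list fell in 14 of 15 genes at the same time (median -3.15), while the erythroid list rose in 0 and fell in 1 of 26. The median over the 38 genes was 0.24 and over all genes 0.13.

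**Figure D1:**
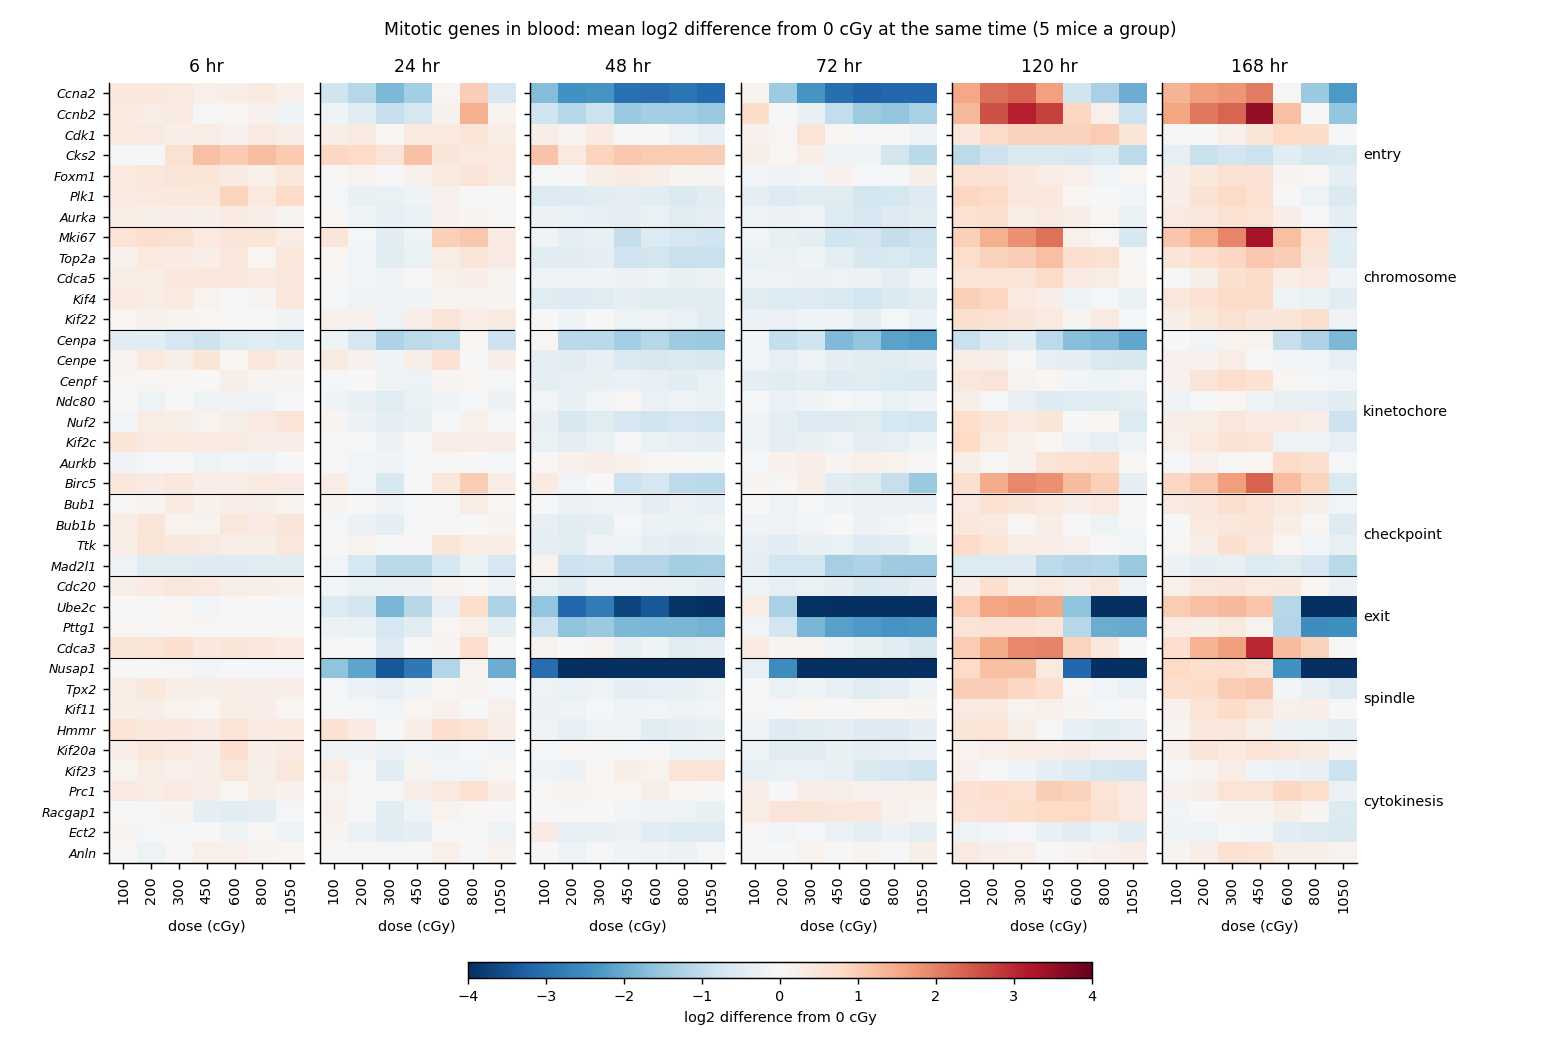
Heat map of the 38 genes (rows, grouped by role) against 7 doses at each of 6 times (columns), in the dose and time set. Colour is the mean log2 difference from 0 cGy at the same time over 5 mice a group, and the scale saturates at 4 in both directions. At 72 hr and 600 cGy Nusap1 is at -5.90 and Ube2c at -5.36, and at 168 hr and 450 cGy Ccnb2 is at 3.53 and Mki67 at 3.30.

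At 24 hr the doses did not line up in order. Over all doses 13 of 38 genes rose with dose and 1 fell, against 18.9% and 19.8% of all genes. Without the 1050 cGy mouse of low Alas2, an alternative chosen after seeing the data, 15 rose and 1 fell. Without the mice labelled 800 cGy 7 rose and 2 fell, and without arrays with Alb of 10 or more 5 rose and 1 fell. The latter fit kept only 0, 100, 200, 800 and 1050 cGy, with 2, 5, 2, 3 and 3 mice. Ube2c, which did not pass, had a slope of -0.068 per 100 cGy without the 800 cGy mice. Mki67 rose by 0.96 ± 0.31 (adjusted p 0.00925, limma), and so did Kif22, a chromosome-binding kinesin (0.51 ± 0.16), Ttk, the kinase that starts the spindle checkpoint (0.47 ± 0.17), Birc5 (0.46 ± 0.25, adjusted p 0.00153) and Ccnb2 (0.17 ± 0.28, adjusted p 0.000116). Mad2l1 fell by 0.71 ± 0.17 (adjusted p 0.0342), and Ube2c was at -0.32 ± 0.49 (adjusted p 0.946).
At 300 cGy, 15 of 38 genes fell and 0 rose, where 17.9% of all genes fell. Nusap1, which bundles spindle microtubules, was at 10.54, 10.61, 10.86, 10.88 and 10.92 in the unirradiated mice and at 6.56, 6.82, 7.19, 7.54 and 8.79 at 300 cGy. The highest irradiated mouse was below the lowest unirradiated one, and the difference was -3.38 ± 0.46 (adjusted p 4.85e-10, limma).
Ube2c fell by 1.82 ± 0.49, from 11.41 to 11.84 in the unirradiated mice to 9.20, 9.36, 9.41, 9.47 and 11.41. The cyclin gene Ccna2 fell by 1.79 ± 0.29, Cenpa, the histone variant of centromeres, by 1.25 ± 0.19, and Ccnb2 by 0.91 ± 0.28. Birc5 fell by 0.63 ± 0.25 (adjusted p 0.0409), and Mki67 differed by -0.44 ± 0.31 (adjusted p 0.285). The hepatocyte list rose in 16 of 17 genes in the same comparison (median 4.31), with its mean level between 11.41 and 13.05 in the irradiated mice and between 4.77 and 10.50 in the unirradiated mice. The erythroid list fell in 12 of 26 genes and rose in 2. Their part in the result was not tested.
At 800 cGy, 10 of 38 genes rose and 0 fell, where 9.74% of all genes rose. Ccnb2 was at 5.41, 5.53, 5.59, 5.68 and 5.70 at 0 cGy and at 5.91, 6.36, 7.36, 7.64 and 7.68 at 800 cGy. That is a rise of 1.41 ± 0.28 (adjusted p 4.24e-05, limma). Mki67 rose by 1.08 ± 0.31, Birc5 by 1.01 ± 0.25 and Ccna2 by 0.98 ± 0.29, and Ube2c differed by 0.69 ± 0.49 (adjusted p 0.318). The erythroid list rose in 15 of 26 genes (median 0.83), and the lower Cdkn1a values of these mice are given above.

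At 48 hr more of the genes fell than rose with dose. Of the 38 genes 18 fell with dose and 2 rose, against 23.3% and 24% of all genes. Already at 100 cGy 9 fell and 2 rose, where 18.2% of all genes fell. Nusap1 was at 10.96, 11.11, 11.12, 11.36 and 11.44 in unirradiated mice, at 7.47, 7.68, 8.38, 8.53 and 8.67 at 100 cGy and at 4.32, 4.96, 5.32, 5.55 and 5.95 at 600 cGy. The 3 groups did not overlap, and the differences were -3.05 ± 0.46 at 100 cGy and -5.98 ± 0.46 at 600 cGy (adjusted p of the trend 9.67e-30, limma).
Ube2c fell by 3.39 ± 0.49 at 600 cGy and by 1.57 ± 0.49 at 100 cGy. Ccna2 (-3.05 ± 0.29 and -1.74 ± 0.29) fell at both doses, and so did Pttg1 (-1.82 ± 0.21 and -0.87 ± 0.21), securin, which holds sister chromatids together until anaphase. Ccnb2 fell by 1.36 ± 0.28 and by 0.80 ± 0.28.
Birc5 (-0.67 ± 0.25, adjusted p 3.94e-11) and Mki67 (-0.56 ± 0.31, adjusted p 0.00515) also fell with dose. At 100 cGy they differed by 0.31 ± 0.25 (adjusted p 0.322) and -0.15 ± 0.31 (adjusted p 0.717). Cks2 went the other way, from 7.65 to 8.50 in the unirradiated mice to 8.87, 9.0, 9.04, 9.47 and 9.73 at 100 cGy, a rise of 1.14 ± 0.24 with no overlap. It rose with dose (1.02 ± 0.24 at 600 cGy), as did Kif23 (0.14 ± 0.17, adjusted p of the trend 4.05e-07). The guanine exchange factor gene Ect2, which starts the cleavage furrow, rose at 100 cGy (0.32 ± 0.13) and fell with dose over all groups. The erythroid list fell with dose in 18 of 26 genes and rose in 4 (median -1.30).

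At 72 hr 24 of 38 genes fell with dose and 0 rose, against 27.1% and 26.3% of all genes. Calls of each dose against 0 cGy were less one-sided under quantile normalisation, as given in the last section. The median difference was -0.48 over the 38 genes and -0.10 over all genes. Ube2c was at 11.74, 12.00, 12.12, 12.16 and 12.33 in the unirradiated mice and at 5.47, 5.72, 6.08, 7.73 and 8.55 at 600 cGy. Every irradiated mouse was below every unirradiated one, with a difference of -5.36 ± 0.49 (adjusted p of the trend 1.72e-35, limma).
Nusap1 went from 10.96, 11.05, 11.09, 11.37 and 11.69 to 4.80, 5.19, 5.32, 5.38 and 6.00, a difference of -5.90 ± 0.46 (adjusted p 2.45e-40). Ccna2 fell by 3.25 ± 0.29 (adjusted p 1.28e-33) and Pttg1 by 2.28 ± 0.21 (adjusted p 3.48e-33). Ccnb2 fell by 1.42 ± 0.28 (adjusted p 1.20e-16), Mki67 by 0.74 ± 0.31 (adjusted p 0.000414) and Birc5 by 0.55 ± 0.25 (adjusted p 5.21e-14).
By role, 5 of 7 genes of mitotic entry fell (Ccna2, Ccnb2, Cks2, Plk1 and Aurka, a centrosome kinase), while Cdk1 and the transcription factor gene Foxm1 did not pass. Of the chromosome genes 3 of 5 fell: Mki67, Top2a and the chromokinesin Kif4. Among the kinetochore genes 5 of 8 fell: Cenpa, Cenpe, a kinesin that moves chromosomes to the spindle middle, Cenpf, Nuf2 and Birc5. Checkpoint genes fell in 2 of 4 (Mad2l1 and the kinase Bub1) and exit genes in 4 of 4 (Ube2c, Pttg1, Cdca3 and Cdc20, which activates the ligase that ends mitosis). Spindle genes fell in 3 of 4 (Nusap1, Tpx2, which nucleates spindle microtubules, and Hmmr, a spindle assembly factor) and cytokinesis genes in 2 of 6 (Kif23 and Ect2).
Of the related lists, 21 of 40 further mitotic genes fell and 4 rose, and 21 of 37 DNA replication genes fell and 2 rose. Of 15 regulators of mitotic genes 8 fell and 3 rose. The erythroid list fell in 21 of 26 genes and rose in 4 (median -1.98), with its mean level between 8.87 and 9.51 at 0 cGy and between 6.77 and 7.80 at 600 cGy. Alas2 was between 14.19 and 14.30 at 0 cGy and between 7.57 and 12.24 at 600 cGy. Without arrays with Alb of 10 or more, 16 genes fell and 0 rose. The part of the erythroid transcripts in the result was not tested.
The mouse with the highest mean over the 38 genes at 300 cGy had Nusap1 at 8.96, where the others were between 5.60 and 6.16. Its Alas2 was 14.28, and that of the others between 9.35 and 11.08. At 100 cGy Ube2c had not separated: it was at 12.19, 12.26, 12.27, 12.48 and 12.60, 0.29 ± 0.49 from the unirradiated mice (adjusted p 0.736, limma). Between mice sharing a title code number Ccnb2 (0.34 to 1.24) and Racgap1 (0.06 to 0.60) were higher in 5 of 5 pairs. Top2a, Kif4, Kif22, Cenpf, Aurka, Mad2l1, Pttg1 and Kif23 were lower in 5 of 5. Mki67 and Birc5 were each lower in 3 and higher in 2.

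**Figure D2:**
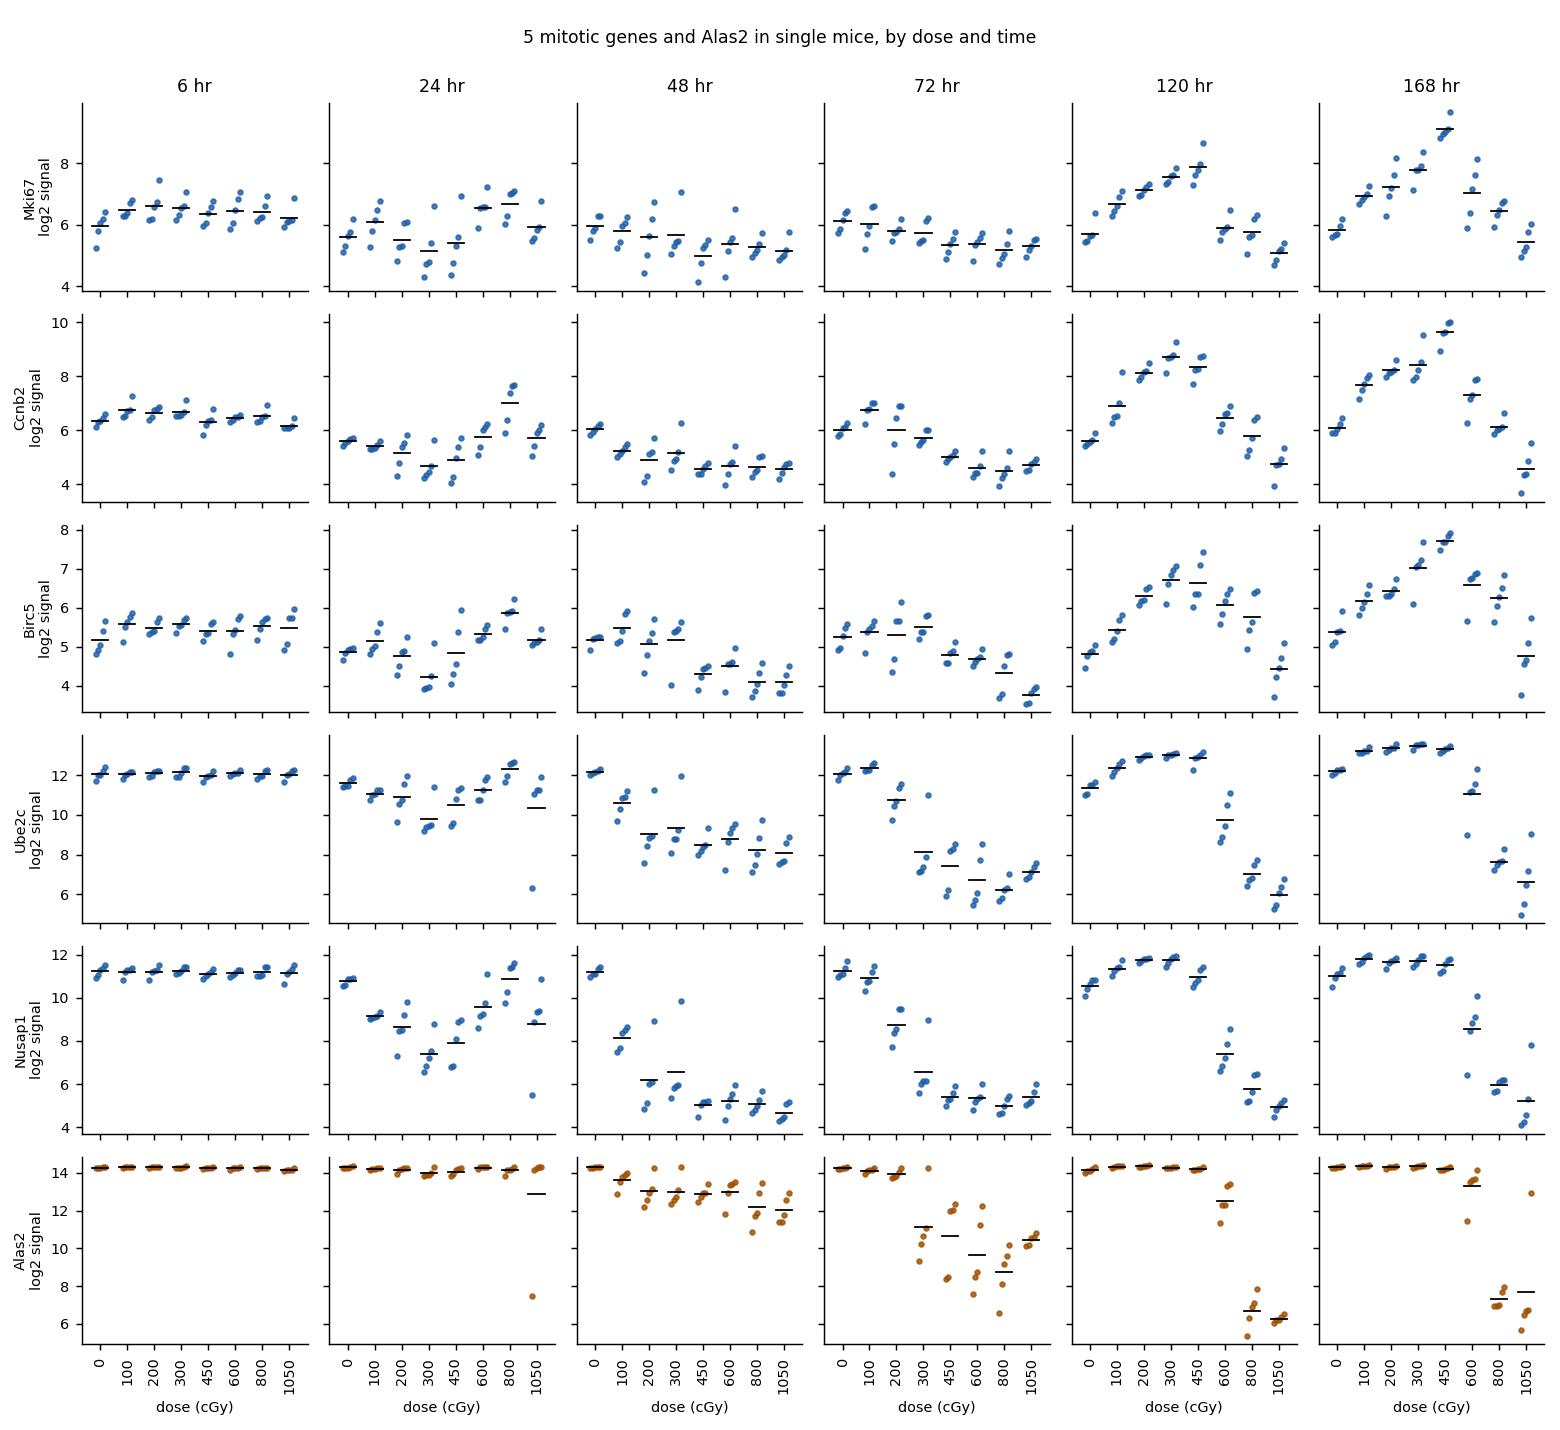
Log2 signal of Mki67, Ccnb2, Birc5, Ube2c and Nusap1, with the red cell precursor gene Alas2, in every mouse of the dose and time set (vertical axis) against dose and time (horizontal axis). Points are mice in order of value, and bars are group means. At 72 hr Ube2c of the 600 cGy mice lies between 5.47 and 8.55, below all unirradiated mice, and at 168 hr Mki67 of the 450 cGy mice lies between 8.83 and 9.68, above all unirradiated mice.

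At 120 hr the middle doses were higher and the top doses lower than the unirradiated mice. At 200 cGy 28 of 38 genes rose and 3 fell, against 37.5% and 29.6% of all genes. At 450 cGy 19 rose and 5 fell, against 18.6% and 22.3%. At 1050 cGy 2 rose and 13 fell, against 24.8% and 25.3%. Medians over the 38 genes were 0.57, 0.38 and -0.22, where those over all genes were 0.17, 0.07 and -0.05.
Ccnb2 was at 5.40, 5.47, 5.56, 5.65 and 5.88 in unirradiated mice, at 7.84, 7.98, 8.15, 8.18 and 8.50 at 200 cGy, and at 7.72, 8.24, 8.25, 8.71 and 8.74 at 450 cGy. At 1050 cGy it was at 3.94, 4.72, 4.73, 4.95 and 5.34. The middle doses lay above all unirradiated mice and the top dose below them all, with differences of 2.54 ± 0.28 (adjusted p 1.07e-13), 2.74 ± 0.28 (adjusted p 1.95e-16) and -0.86 ± 0.28 (adjusted p 0.00729, limma).
Mki67 was at 5.42 to 6.37 in the unirradiated mice, and at 6.92, 6.97, 7.12, 7.23 and 7.34 at 200 cGy. It rose by 1.41 ± 0.31 at 200 cGy and by 2.16 ± 0.31 at 450 cGy, and differed by -0.65 ± 0.31 at 1050 cGy (adjusted p 0.0746). Birc5 rose by 1.49 ± 0.25 and 1.84 ± 0.25 and differed by -0.37 ± 0.25 (adjusted p 0.221). These genes showed a peak over dose, not a slope of one sign.
Ube2c was at 11.01, 11.02, 11.49, 11.50 and 11.64 without irradiation, at 12.78, 12.88, 12.95, 12.99 and 13.02 at 200 cGy and at 5.27, 5.44, 6.07, 6.35 and 6.77 at 1050 cGy. It rose by 1.59 ± 0.49 and 1.51 ± 0.49 at the middle doses and fell by 5.35 ± 0.49 at 1050 cGy. Ccna2 rose by 2.20 ± 0.29 at 200 cGy. Cdca3, an adaptor for the destruction of the mitotic inhibitor Wee1, rose by 1.49 at 200 cGy and by 1.97 ± 0.20 at 450 cGy.
Separation of this kind was not shared by all members. Cks2 fell at 200 cGy (-0.82 ± 0.24) and 450 cGy (-0.59 ± 0.24), and so did Cenpa (-0.57 ± 0.19 and -1.04 ± 0.19) and Mad2l1 (-0.54 ± 0.17 and -1.07 ± 0.17). Ndc80, a kinetochore gene, fell by 0.52 ± 0.13 at 450 cGy. At 1050 cGy Nusap1 (-5.63 ± 0.46), Cenpa (-2.09 ± 0.19) and Pttg1 (-2.04 ± 0.21) fell furthest beside Ube2c, while Cdk1 rose by 0.47 ± 0.17 and Prc1, which bundles the central spindle, by 0.36 ± 0.14. In the same mice the erythroid list fell in 19 of 26 genes and rose in 3 (median -1.58), Alas2 was lower in 5 of 5 pairs of mice sharing a title code number (-8.25 to -7.68), and the hepatocyte list rose in 17 of 17 (median 8.04). At 450 cGy the erythroid list rose in 19 of 26 genes and fell in 1 (median 1.24), and the hepatocyte list rose in 16 of 17. The part of these lists in the results was not tested.
At 200 cGy the genes that rose were 6 of 7 of entry, 5 of 5 of the chromosome group, 4 of 8 of the kinetochore, 3 of 4 of the checkpoint, 4 of 4 of exit, 4 of 4 of the spindle and 2 of 6 of cytokinesis. Further mitotic genes rose in 23 of 40 and fell in 3, DNA replication genes rose in 10 of 37 and fell in 10, and regulators rose in 6 of 15 and fell in 4. The erythroid list rose in 19 of 26 genes and fell in 0 (median 1.12), its mean level going from between 8.45 and 8.96 to between 9.64 and 9.86. Its part in the result was not tested.
Over all doses at 120 hr the slope fell in 28 genes and rose in 2, against 47% and 35.4% of all genes. Nusap1 (-3.15 ± 0.46 at 600 cGy), Cenpa (-1.69 ± 0.19), Ube2c (-1.62 ± 0.49) and Mad2l1 (-1.18 ± 0.17) were lower at 600 cGy, and Cdk1 (0.91 ± 0.17) and Aurkb, the kinase of the chromosomal passenger complex (0.59 ± 0.14), rose. Ccnb2 (slope -0.192 per 100 cGy), Mki67 (-0.135) and Birc5 (-0.052) had falling slopes although at 600 cGy they differed from 0 cGy by 0.86 ± 0.28, 0.20 ± 0.31 and 1.28 ± 0.25. All mice from 450 cGy up had Alb of 10 or more, and without such arrays, which leaves 0 to 300 cGy, 20 genes rose and 2 fell. The slope then was 1.07 for Ccnb2 and 0.56 for Ube2c.

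At 168 hr the peak stood at 450 cGy. There 25 of 38 genes rose and 2 fell, against 37.9% and 30.3% of all genes. At 200 cGy 21 rose and 2 fell, against 29.8% and 29%. At 1050 cGy 0 rose and 21 fell, against 26.7% and 33.3%. The medians over the 38 genes were 0.52, 0.41 and -0.40, and over all genes 0.16, 0.10 and -0.13.
Mki67 was at 5.61, 5.67, 5.69, 5.96 and 6.20 without irradiation, at 8.83, 8.95, 9.03, 9.12 and 9.68 at 450 cGy, and at 4.95, 5.14, 5.26, 5.76 and 6.01 at 1050 cGy. The 450 cGy mice were all above the unirradiated ones (3.30 ± 0.31, adjusted p 1.19e-18, limma), while the 1050 cGy mice overlapped them (-0.40 ± 0.31, adjusted p 0.259). The sample titles carry a code number shared by 1 mouse of each group, whose meaning the labels do not give, and within each of its 5 values Mki67 was higher at 450 cGy, by 2.86 to 3.48.
Ccnb2 went from 5.88, 5.90, 6.03, 6.22 and 6.45 to 8.94, 9.58, 9.62, 9.98 and 9.99 at 450 cGy. Its rise was 3.53 ± 0.28 (adjusted p 1.67e-23), and at 1050 cGy it fell by 1.54 ± 0.28 (adjusted p 8.47e-07). Cdca3 rose by 2.99 ± 0.20 at 450 cGy.
Birc5 was at 5.03, 5.12, 5.36, 5.39 and 5.91 at 0 cGy and at 7.48, 7.68, 7.68, 7.83 and 7.91 at 450 cGy, a rise of 2.35 ± 0.25 (adjusted p 1.19e-15). It fell by 0.61 ± 0.25 at 1050 cGy (adjusted p 0.0283). Ube2c rose by 1.11 ± 0.49 at 450 cGy (adjusted p 0.0366), from 12.00 to 12.30 to between 13.11 and 13.46 with no overlap, and fell by 5.55 ± 0.49 at 1050 cGy. The standard error comes from 1 spread per gene, estimated over all groups of the set.
At 200 cGy the members with the largest rises were Ccnb2 (2.12 ± 0.28), Ccna2 (1.68 ± 0.29), Mki67 (1.41 ± 0.31) and Cdca3 (1.39 ± 0.20), and Ube2c rose by 1.17 ± 0.49 and Birc5 by 1.07 ± 0.25. Cks2 fell at 200 and 450 cGy (-0.89 ± 0.24 and -0.85 ± 0.24), as did Mad2l1 (-0.41 ± 0.17 and -0.57 ± 0.17). At 1050 cGy Nusap1 (-5.79 ± 0.46), Pttg1 (-2.45 ± 0.21) and Ccna2 (-2.30 ± 0.29) fell furthest beside Ube2c. The 600 cGy mice spread widely between these states: Ube2c was at 8.96, 11.13, 11.19, 11.56 and 12.29, and Nusap1 at 6.41, 8.47, 8.81, 9.11 and 10.08.
At 450 cGy 6 of 7 entry genes, 5 of 5 chromosome genes, 3 of 8 kinetochore genes, 3 of 4 checkpoint genes, 3 of 4 exit genes, 2 of 4 spindle genes and 3 of 6 cytokinesis genes rose. Among these were the motor genes Kif11, which pushes spindle poles apart, Kif2c, which shortens microtubules at kinetochores, and Kif20a, a furrow kinesin, and Anln, which links the furrow to actin. The further mitotic genes rose in 22 of 40 and fell in 3, DNA replication genes rose in 12 of 37 and fell in 11, and regulators rose in 7 of 15 and fell in 6.
At 450 cGy the erythroid list rose in 18 of 26 genes and fell in 0 (median 1.56), with its mean level between 10.19 and 10.53 against 8.83 to 9.03 at 0 cGy. At 1050 cGy it fell in 23 and rose in 2 (median -2.04), and Alas2 was below 6.73 in 4 mice (5.68, 6.48, 6.66 and 6.72) and at 12.95 in the fifth. The hepatocyte list rose in 16 of 17 genes at 450 cGy (median 4.71) and in 17 of 17 at 1050 cGy. Their part in the results was not tested. At 200 cGy the hepatocyte list rose in 0 of 17 genes, while Alb was at 10 or more in 2 of 5 mice. The part of liver transcripts was not tested there either.
Over all doses the slope at 168 hr fell in 28 genes and rose in 2, against 46.6% and 35.5% of all genes. Nusap1 (-2.42 ± 0.46 at 600 cGy), Pttg1 (-1.16 ± 0.21), Ube2c (-1.15 ± 0.49) and Cenpa (-0.91 ± 0.19) were lower at 600 cGy, and Cdk1 (0.81 ± 0.17) and Aurkb (0.79 ± 0.14) rose. Ccnb2 (slope -0.224 per 100 cGy), Mki67 (-0.084) and Birc5 (-0.064) again had falling slopes with higher values at 600 cGy (1.20 ± 0.28, 1.21 ± 0.31 and 1.22 ± 0.25). Without arrays with Alb of 10 or more 26 genes rose and 2 fell over 0 to 300 cGy, with a slope of 0.78 for Ccnb2.

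**Figure D3:**
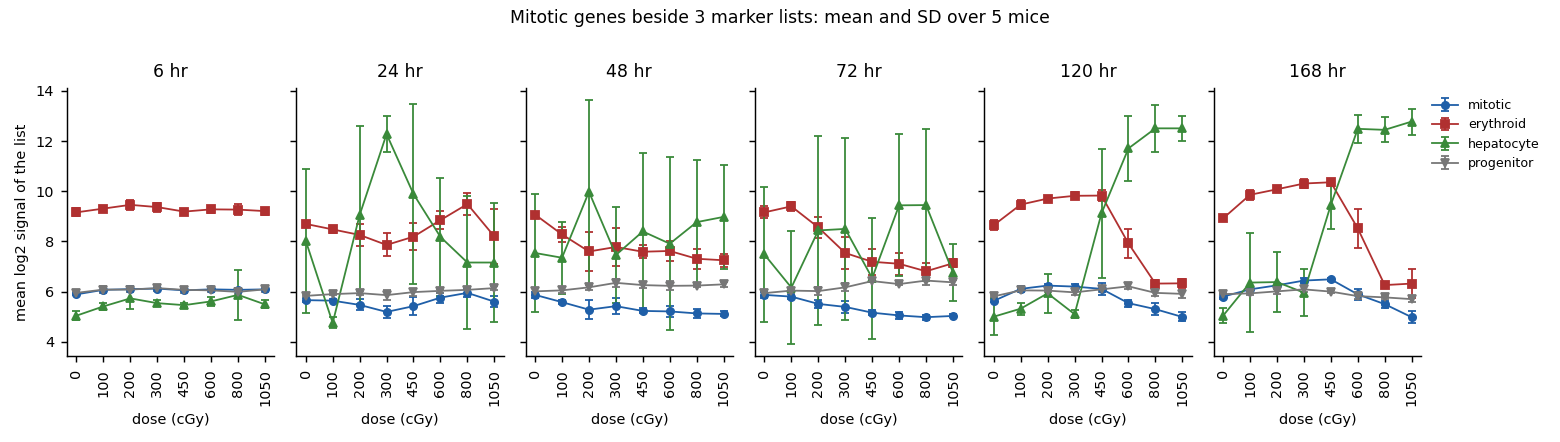
Mean log2 level of the 38 mitotic genes and of the erythroid, hepatocyte and progenitor marker lists (vertical axis) against dose in cGy (horizontal axis) at each of 6 times. Points are means over 5 mice and bars are SD. At 168 hr the mitotic mean goes from 5.80 without irradiation to 6.49 at 450 cGy and 4.98 at 1050 cGy, while the erythroid mean goes from 8.92 to 10.36 and 6.32.

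The dependence on dose differed between times in 35 of 38 genes by a test of the slopes across the 6 times. The share passing was 92.3% over all genes, so this count is at the background. Adjusted p was 1.02e-08 for Mki67, 1.99e-24 for Ccnb2, 1.03e-41 for Ube2c and 1.04e-16 for Birc5 (limma). Among unirradiated mice alone 14 of 38 genes differed between times, where 50.3% of all genes did. Mki67 (adjusted p 0.681), Ccnb2 (0.0839), Ube2c (0.477) and Birc5 (0.237) were not among them.

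In the small 7 day set, a separate set of mice, 150 cGy was compared with 0 cGy at 168 hr. Of the 38 genes 21 rose and 4 fell, against 33.8% and 33.3% of all genes, and the median was 0.42 (0.09 over all genes). Ube2c was at 11.50, 11.52 and 11.83 in the 3 unirradiated mice and between 12.36 and 13.42 (median 12.87) in the 10 irradiated mice. The groups did not overlap, and the rise was 1.23 ± 0.21 (adjusted p 0.000153, limma).
Ccnb2 was at 5.26, 5.43 and 5.89 against a range of 5.99 to 8.50, and rose by 1.80 ± 0.39. Ccna2 rose by 1.85 ± 0.39, Mki67 by 1.08 ± 0.38 (adjusted p 0.0204) and Birc5 by 0.75 ± 0.31 (adjusted p 0.0375). The genes that fell were Cenpa (-0.81 ± 0.24), Ect2 (-0.69 ± 0.19), Mad2l1 (-0.61 ± 0.20) and Aurkb (-0.54 ± 0.14). In the dose and time set at 168 hr and 200 cGy, Mad2l1 had also fallen, while Cenpa (-0.10 ± 0.19, adjusted p 0.634), Ect2 (-0.21 ± 0.13, adjusted p 0.152) and Aurkb (0.17 ± 0.14, adjusted p 0.29) did not pass.
Further mitotic genes rose in 19 of 40 and fell in 5, and DNA replication genes rose in 6 of 37 and fell in 15. The erythroid list rose in 23 of 26 genes (median 1.12, mean level 8.55 to 8.84 against 9.16 to 10.33) and the hepatocyte list in 11 of 17. Their part in the result was not tested. Leaving out 1 of the 3 unirradiated mice lowered the count from 25 to 15.

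LPS raised the mitotic genes in mice that were not irradiated. At 6 hr 25 of 38 genes rose and 0 fell against mice given no agent, where 14.8% of all genes rose. At 24 hr 27 rose and 0 fell, where 9.2% of all genes rose. The medians were 0.56 and 0.64, and over all genes 0.06 and 0.02. These comparisons average the sexes. At 6 hr the mean over the 38 genes went from 5.8 to 6.61 in females, with 3 mice after LPS. In males it went from 5.89 to 6.12. At 24 hr it went from 5.74 to 6.37 in females and from 5.77 to 6.56 in males.
Birc5 at 24 hr was at 4.68, 5.27, 5.45, 5.45 and 5.64 in females given no agent and at 4.67, 5.26, 5.29, 5.51 and 5.62 in such males. After LPS it was at 6.30, 6.87, 7.46 and 7.95 in females and at 7.17, 7.30, 7.55, 7.67 and 8.23 in males. The groups did not overlap in either sex, and Birc5 rose by 2.08 ± 0.22 (adjusted p 1.45e-15, limma).
Bub1 was between 3.21 and 3.50 without agent and between 4.17 and 6.10 after LPS at 24 hr, a rise of 1.57 ± 0.12 (adjusted p 1.91e-24). Its mean over all arrays was low, at percentile 4.29 among all genes. Cdk1 rose by 1.59 ± 0.17, Mki67 by 1.70 ± 0.28 (adjusted p 1.25e-07) and Ccnb2 by 1.05 ± 0.26. Ube2c (0.28 ± 0.22, adjusted p 0.439) did not pass, and of the genes that moved most with dose, Nusap1 (-0.45 ± 0.28, adjusted p 0.283) and Pttg1 (0.15 ± 0.12, adjusted p 0.489) did not pass at 24 hr either. These 2 were named after their values were seen.
By role and by the probe sets used, LPS at 24 hr raised 5 of 7 entry, 4 of 5 chromosome, 5 of 8 kinetochore and 4 of 4 checkpoint genes. It raised 2 of 4 exit, 1 of 4 spindle and 6 of 6 cytokinesis genes. Other probe sets of some spindle and exit genes gave larger differences, as given below. At 6 hr the largest rises were Mki67 (1.33 ± 0.29, adjusted p 0.000104), Top2a (1.26 ± 0.16), Birc5 (1.23 ± 0.23) and Nuf2 (1.11 ± 0.15), and Ccnb2 rose by 0.82 ± 0.27. Ube2c (-0.09 ± 0.23, adjusted p 0.767) and Nusap1 (-0.11 ± 0.29, adjusted p 0.77) did not pass.
Mki67 at 6 hr after LPS was at 8.63, 8.96 and 9.17 in 3 females and at 6.26, 6.34, 6.50, 6.67 and 6.86 in males. Without agent it was between 6.52 and 7.42 in females and between 5.63 and 6.69 in males, so the female groups were apart and the male groups overlapped.
Further mitotic genes rose in 25 of 40 at 6 hr and 23 of 40 at 24 hr, with 1 falling at each. DNA replication genes rose in 9 of 37 and 21 of 37. Beside these, the secondary granule list of neutrophil precursors rose in 7 of 8 genes at 6 hr and 8 of 8 at 24 hr (medians 2.59 and 4.48), and the primary granule list in 5 of 5 and 4 of 5. B cell markers fell in 13 of 15 and 15 of 15 genes, and T cell markers in 13 of 16 and 14 of 16. The erythroid list rose in 8 of 26 genes at 6 hr and in 2 of 26 at 24 hr. Their part in the result was not tested.

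Among mice given LPS, many mitotic transcripts were lower at higher doses. At 24 hr 21 of 38 genes fell with dose and 0 rose, against 9.8% and 3.25% of all genes. Birc5 was at 4.96, 5.65, 5.81, 5.87 and 6.33 in females and at 5.19, 5.63, 5.73, 6.40 and 6.66 in males at 600 cGy with LPS. In males these lie below all the LPS mice at 0 cGy, in females they overlap by 1 mouse each, and the difference was -1.54 ± 0.22 (adjusted p 1.14e-07, limma).
Mad2l1 fell by 1.30 ± 0.13, Bub1 by 1.26 ± 0.12, Cdk1 by 1.10 ± 0.17, Ccnb2 by 0.86 ± 0.26 (adjusted p 0.0213) and Mki67 by 0.81 ± 0.28 (adjusted p 0.0468). Ube2c was at -0.54 ± 0.22 (adjusted p 0.0799). At 6 hr under LPS 12 fell and 2 rose, against 15.8% and 16.4%. These counts average the sexes, which were unlike. In females the mean over the 38 genes was 6.61 at 0 cGy (3 mice) and 6.21, 6.15 and 6.14 at 200, 300 and 600 cGy. In males it was 6.12 at 0 cGy and 6.1 at each higher dose. Ccnb2 (-1.0 ± 0.27), Top2a (-0.96 ± 0.16), Aurkb (-0.82 ± 0.13), Cenpa (-0.79 ± 0.19) and Birc5 (-0.67 ± 0.23) fell, Hmmr (0.68 ± 0.18) and Foxm1 (0.40 ± 0.13) rose, and Mki67 (-0.48 ± 0.29, adjusted p 0.18) and Ube2c (-0.09 ± 0.23, adjusted p 0.531) did not pass.
Marker lists moved with dose in the same LPS mice. At 6 hr the secondary granule list fell in 8 of 8 genes (median -2.05), mature neutrophil markers in 7 of 8, monocyte markers in 7 of 10, B cell markers in 8 of 15 and erythroid markers in 8 of 26. At 24 hr B cell markers fell in 10 of 15, T cell markers in 7 of 16, erythroid markers in 4 of 26 and DNA replication genes in 22 of 37, while the granule lists had 0 called. What part these lists have in the results was not tested.
Without agent in this set, at 6 hr 4 rose and 0 fell, against 7.55% and 12.4% of all genes: Hmmr (0.58 ± 0.17), Cenpe (0.53 ± 0.19), Foxm1 (0.38 ± 0.12) and Kif20a (0.30 ± 0.09). Mki67 (0.37 ± 0.27, adjusted p 0.26), Ccnb2 (-0.12 ± 0.25, adjusted p 0.777), Ube2c (-0.13 ± 0.21, adjusted p 0.767) and Birc5 (0.42 ± 0.21, adjusted p 0.116) did not pass.
At 24 hr 8 rose and 5 fell, against 18.3% and 22.9%, and the split was 11 and 3 with arrays centred on their median. Cks2 (1.0 ± 0.31), Mki67 (0.96 ± 0.27), Cenpe (0.82 ± 0.19) and Hmmr (0.69 ± 0.17) rose, and Nusap1 (-1.78 ± 0.27), Mad2l1 (-1.06 ± 0.13), Cenpa (-0.79 ± 0.17) and Ccna2 (-0.61 ± 0.23) fell. Ccnb2 (-0.21 ± 0.25, adjusted p 0.643), Ube2c (-0.47 ± 0.21, adjusted p 0.127) and Birc5 (0.13 ± 0.21, adjusted p 0.735) did not pass.

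**Figure D4:**
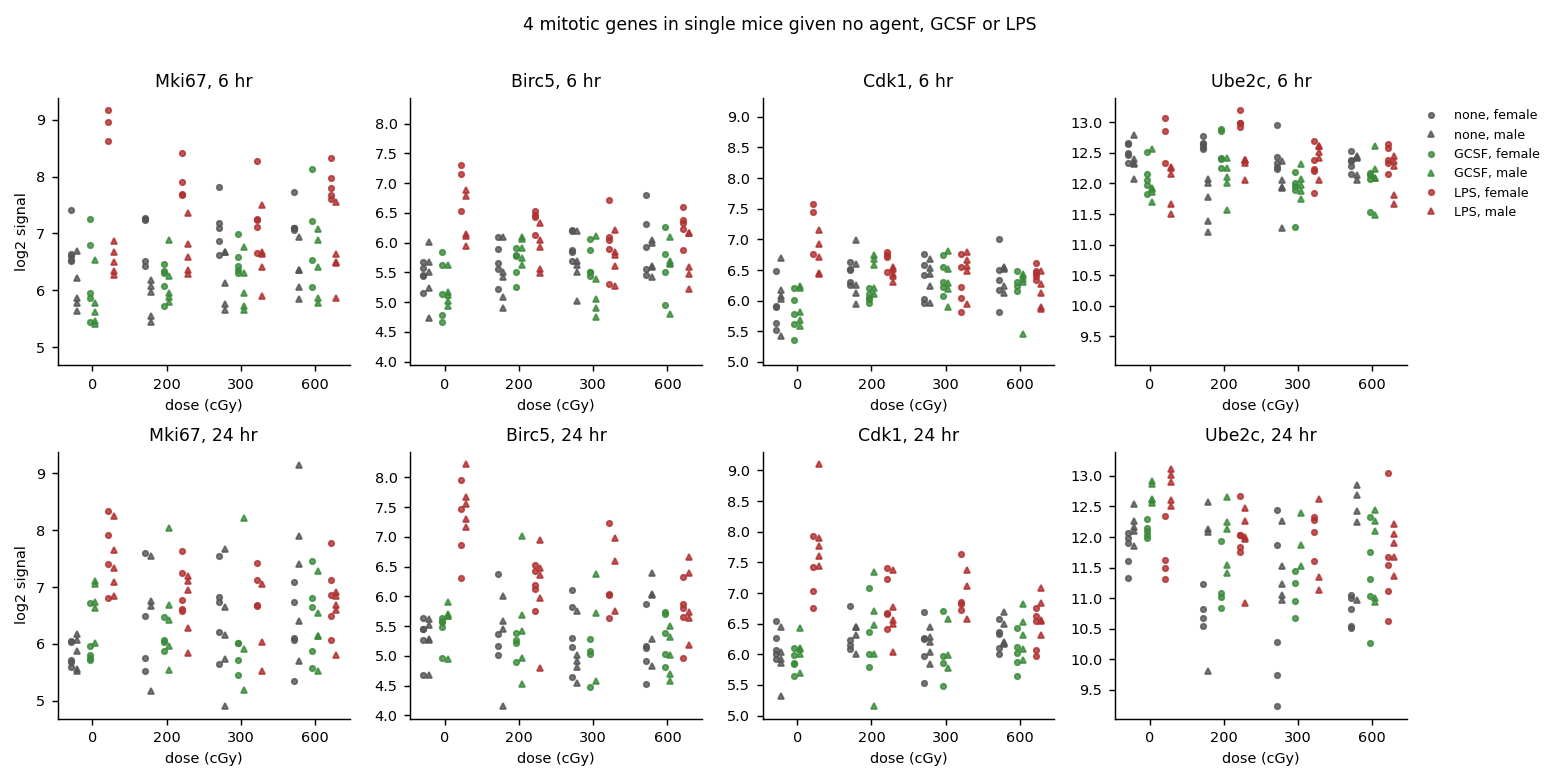
Log2 signal of Mki67, Birc5, Cdk1 and Ube2c (vertical axis) in every mouse of the treatment set against dose in cGy under no agent, GCSF and LPS (horizontal axis), at 6 and 24 hr. Circles are female and triangles male mice. At 24 hr and 0 cGy Birc5 lies between 6.30 and 8.23 after LPS and between 4.67 and 5.64 without agent.

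The slopes under LPS and without agent were compared directly. At 24 hr the slope was lower under LPS in 18 of 38 genes and at 6 hr in 11, where it was lower in 9.13% and 3.95% of all genes. The count at 6 hr was 1 to 13 when each replicate number was left out (1 without replicate 3, 4 without replicate 2). It was 4 with dim genes left out, where only 21 of the 38 genes were tested. The slopes average the sexes. From 0 to 600 cGy the 6 hr mean under LPS went from 6.61 to 6.14 in females and from 6.12 to 6.1 in males. At 24 hr the difference of the 600 and 0 cGy differences was -1.77 ± 0.38 for Mki67 (adjusted p 0.000417), -1.68 ± 0.30 for Birc5 (adjusted p 4.09e-05), -1.44 ± 0.44 for Cks2 and -1.37 ± 0.23 for Cdk1 (limma). Ccnb2 (-0.65 ± 0.36, adjusted p 0.27) and Ube2c (-0.07 ± 0.30, adjusted p 0.854) did not pass. At 6 hr the largest were Birc5 (-1.10 ± 0.31), Cdk1 (-1.09 ± 0.24), Top2a (-1.03 ± 0.22) and Nuf2 (-0.86 ± 0.21), while Mki67 (-0.85 ± 0.39, adjusted p 0.199), Ccnb2 (-0.88 ± 0.37, adjusted p 0.128) and Ube2c (0.04 ± 0.31, adjusted p 0.934) did not pass.

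GCSF was compared with no agent at 0 cGy. At 6 hr 0 of 38 passed (0% of all genes in either direction, and 0 of 38 at an unadjusted p under 0.05), and at 24 hr 0 passed (0.549% of all genes, and 5 of 38 unadjusted, limma). With only the compared groups fitted, 8 of 38 passed at 24 hr. At 24 hr Mki67 differed by 0.52 ± 0.27 (adjusted p 0.331), Ccnb2 by 0.49 ± 0.25 (adjusted p 0.331), Ube2c by 0.43 ± 0.21 (adjusted p 0.315) and Birc5 by 0.23 ± 0.21 (adjusted p 0.536). At 6 hr these were -0.38 ± 0.27, -0.42 ± 0.25, -0.40 ± 0.21 and -0.25 ± 0.21 (adjusted p 0.999 each).
Under GCSF 12 genes rose and 3 fell with dose at 6 hr, against 28.7% and 23.9% of all genes, and the split was 5 and 3 under quantile normalisation. Cks2 (1.10 ± 0.31), Mki67 (0.69 ± 0.28, adjusted p 0.0247), Cenpe (0.54 ± 0.20) and Hmmr (0.50 ± 0.17) rose, and Cenpa (-0.63 ± 0.18), Mad2l1 (-0.45 ± 0.13) and Racgap1 (-0.37 ± 0.14) fell. Ccnb2 (-0.02 ± 0.26, adjusted p 0.7), Ube2c (-0.01 ± 0.22, adjusted p 0.756) and Birc5 (0.41 ± 0.22, adjusted p 0.202) did not pass.
At 24 hr 2 rose and 6 fell, against 13.2% and 17.4%, and 4 rose and 6 fell with arrays centred on their median. Nusap1 was between 11.17 and 11.75 at 0 cGy and between 7.55 and 11.30 at 600 cGy, and fell by 2.04 ± 0.27 (adjusted p 5.00e-09, limma). Ccna2 (-1.02 ± 0.23), Ccnb2 (-0.88 ± 0.25, adjusted p 0.0112) and Ube2c (-0.87 ± 0.21, adjusted p 0.00124) fell, Cks2 (1.20 ± 0.31) and Foxm1 (0.42 ± 0.12) rose, and Mki67 (0.05 ± 0.27, adjusted p 0.939) and Birc5 (-0.34 ± 0.21, adjusted p 0.242) did not pass. Beside these, the erythroid list fell in 14 of 26 genes and rose in 4 (median -0.62), B cell markers fell in 14 of 15 and T cell markers in 12 of 16, and their part in the result was not tested. The slopes under GCSF and without agent differed in 0 of 38 genes at 6 hr (0.0161% of all genes, 1 of 38 unadjusted) and in 0 at 24 hr (0.00807%, 2 of 38 unadjusted). For Mki67 the differences were 0.31 ± 0.38 (adjusted p 0.85) and -0.91 ± 0.38 (adjusted p 0.562), for Ccnb2 0.09 ± 0.36 (adjusted p 0.992) and -0.67 ± 0.35 (adjusted p 0.85). For Ube2c they were 0.13 ± 0.30 (adjusted p 0.992) and -0.40 ± 0.30 (adjusted p 0.971), and for Birc5 -0.01 ± 0.30 (adjusted p 0.911) and -0.47 ± 0.30 (adjusted p 0.94).

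Male and female mice were compared without agent. At 0 cGy and 6 hr 3 of 38 genes differed, all higher in males, where 27.8% of all genes differed: Kif4 (0.56 ± 0.19, adjusted p 0.0211), Ttk (0.50 ± 0.17, adjusted p 0.022) and Bub1b (0.43 ± 0.16, adjusted p 0.0367, limma). The count was 0 under quantile normalisation, 0 to 2 when each replicate number was left out, and 8 with only the compared groups fitted. All 3 genes are among the dimmest 30%, so the fit with dim genes left out did not test them. Mki67 differed by -0.71 ± 0.38 (adjusted p 0.131), Ccnb2 by -0.02 ± 0.35 (adjusted p 0.966), Ube2c by -0.14 ± 0.30 (adjusted p 0.718) and Birc5 by -0.03 ± 0.30 (adjusted p 0.946).
At 24 hr 0 differed (0.0726% of all genes, 1 of 38 unadjusted), with Mki67 at 0.03 ± 0.38, Ccnb2 at 0.43 ± 0.35, Ube2c at 0.40 ± 0.30 and Birc5 at -0.03 ± 0.30 (adjusted p 1 each). The slopes of males and females differed in 0 of 38 genes at 6 hr (10.3% of all genes, 4 of 38 unadjusted) and in 0 at 24 hr (0%, 4 of 38 unadjusted). At 6 hr the difference of slopes, as male minus female at 600 against 0 cGy, was -0.19 ± 0.54 for Mki67, -0.29 ± 0.50 for Ccnb2, 0.09 ± 0.42 for Ube2c and -0.25 ± 0.42 for Birc5. At 24 hr it was 1.02 ± 0.54, 0.92 ± 0.50, 1.04 ± 0.42 and 0.62 ± 0.42 (adjusted p 1 each).

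The small treatment set gave a second look at the agents at 6 hr in other mice, whose sex is not given. LPS raised 24 of 38 genes and lowered 0 at 0 cGy, where 10.2% of all genes rose (medians 0.51 and 0.01). Mki67 was between 6.58 and 7.46 (median 6.67) in 6 mice without agent and between 8.20 and 9.77 (median 8.49) in 6 mice after LPS. The groups did not overlap, and the rise was 1.91 ± 0.25 (adjusted p 8.81e-08, limma).
Ccnb2 rose by 1.38 ± 0.25, Birc5 by 1.20 ± 0.24 and Kif22 by 1.01 ± 0.15, and Ube2c differed by 0.36 ± 0.22 (adjusted p 0.236). The erythroid list rose in 15 of 26 genes here (median 0.53; mean level 9.07 to 9.49 without agent and 9.76 to 10.05 after LPS) and the secondary granule list in 7 of 8. Their part in the result was not tested.
Under LPS 600 cGy lowered 21 of 38 genes and raised 0, where 9.55% of all genes fell, and 150 cGy lowered 11, where 2.4% fell. At 600 cGy Ect2 fell by 1.16 ± 0.19, Top2a by 1.05 ± 0.19, Aurkb by 1.04 ± 0.24, Birc5 by 1.0 ± 0.24, Mki67 by 0.77 ± 0.25 and Ccnb2 by 0.74 ± 0.25, and Ube2c differed by 0.00 ± 0.22 (adjusted p 0.996). At 150 cGy Ccnb2 fell by 0.96 ± 0.27 (adjusted p 0.0325), Top2a by 0.85 ± 0.20, Cdca3 by 0.77 ± 0.21 and Anln by 0.67 ± 0.19, and Mki67 (-0.58 ± 0.27, adjusted p 0.249), Birc5 (-0.78 ± 0.25, adjusted p 0.0686) and Ube2c (-0.35 ± 0.23, adjusted p 0.497) did not pass.
Without agent 150 cGy changed 0 of 38 genes (3.83% of all genes, 5 of 38 unadjusted) and 600 cGy changed 1 (7.38% of all genes), Cks2, by 0.71 ± 0.22 (adjusted p 0.0352). Mki67 differed by 0.19 ± 0.25 and 0.16 ± 0.27 at the 2 doses, Ccnb2 by 0.27 ± 0.25 and 0.52 ± 0.27, Ube2c by 0.00 ± 0.22 and 0.04 ± 0.23, and Birc5 by -0.01 ± 0.24 and 0.53 ± 0.25. GCSF at 0 cGy changed 0 genes (0.549% of all genes, 4 of 38 unadjusted), with Mki67 at -0.09 ± 0.25, Ccnb2 at -0.19 ± 0.25, Ube2c at -0.29 ± 0.22 and Birc5 at -0.20 ± 0.24.
Under GCSF 150 cGy changed 0 (1.77%, 1 of 38 unadjusted) and 600 cGy changed 2 (25%), Cks2 (0.92 ± 0.22, adjusted p 0.00123) and Kif23 (0.43 ± 0.13, adjusted p 0.0117). Mki67 differed by 0.38 ± 0.27 and 0.27 ± 0.27, Ccnb2 by 0.72 ± 0.27 and 0.21 ± 0.27, Ube2c by 0.14 ± 0.23 and 0.38 ± 0.23, and Birc5 by 0.18 ± 0.25 and -0.10 ± 0.25.

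Of the 38 genes 20 had several probe sets, which differed in one direction in 15 at 600 cGy and 72 hr, in 18 at 450 cGy and 168 hr, and in 17 after LPS at 24 hr. The sizes were not shared: at 600 cGy and 72 hr Ccna2 was at -3.25 by the probe set used and at -0.37 by its other one, and Nusap1 at -5.90 and -0.57. At 450 cGy and 168 hr Cdca3 was at 2.99 by the set used and at 0.41 and 0.53 by the others, and after LPS at 24 hr Bub1 was at 1.57 and 0.05. Also after LPS at 24 hr, Kif11 was at 0.14 by the set used and at 1.09 and 1.17 by the others. Nusap1 was at -0.45 by the set used and 0.25 by the other, and Cdc20 at 0.46 against 1.07 and 0.09. The values of Ube2c, Mki67, Ccnb2 and Birc5 come from 1 probe set each. Within the 5 code numbers Ube2c was lower at 600 cGy and 72 hr in 5 of 5 (-6.52 to -3.19), and Nusap1 likewise (-6.37 to -4.96). At 450 cGy and 168 hr Ccnb2 was higher in 5 of 5 (3.06 to 4.08) and Birc5 in 5 of 5 (1.77 to 2.79). For 2 arrays with a repeat scan the SD between scans over the genes was 0.21 and 0.25, while the corresponding medians against their group mates were 0.51 and 0.56.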

How the data were processed

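The authors deposited a log2 signal for each probe set, computed with RMA in affy, per the submitters' processing notes. Versions, and whether all arrays were normalised together, are not given in the sources used here. The table held 22690 probe sets on 536 arrays, with array medians of 5.61 to 5.93. Control probe sets (64) and those with no symbol (1555) or several (691) were left out, and 20380 probe sets gave 12393 genes through the platform annotation, each by its probe set with the highest mean. In 2 mice repeat scans were averaged, giving 534 mice.

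Each set was fitted as group means with limma 3.58.1 (R 4.3.3), eBayes and Benjamini-Hochberg adjustment over all genes, called at an adjusted p of 0.05. Tables and figures used Python 3.11.15, pandas 2.3.3, numpy 2.4.6 and matplotlib 3.10.9. The fits were tested on simulated data. Arrays have no read depth, and the number of mice limits the precision.

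Mki67, Ccnb2, Ube2c and Birc5 were named in every comparison, and so were up to 4 rising and 4 falling genes with the largest differences past the threshold. Further genes, named for their role or after their values were seen, are Nusap1 and Pttg1 under LPS and, at 120 and 168 hr, Cenpa and Mad2l1. The members and lists were chosen with earlier results of these data known. Alternatives were quantile normalisation, centring on the median, a filter on the dimmest 30% of genes, the mean of probe sets, dose on a log2 scale, only the compared groups, blocks by replicate number or by title code, leaving out each replicate, and leaving out arrays with Alb of 10 or more or the 800 cGy mice at 24 hr, and, added after seeing the data, leaving out 1 mouse at 1050 cGy and 24 hr.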

Additional observations from a re-analysis of the deposited data

Results flagged for a closer look

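The mean log2 value of the 38 genes had a mouse far from the rest of its group in 12 of 103 groups of 4 to 10 mice, by Dixon's criterion, which chance meets in about 1 in 20 groups. In the dose and time set the highest mouse was at 6.12 at 450 cGy and 6 hr (others 6.02 to 6.04), at 5.97 at 300 cGy and 48 hr (5.19 to 5.37) and at 5.81 at 300 cGy and 72 hr (5.20 to 5.37). The lowest mouse was at 5.67 at 800 cGy and 24 hr (others 5.95 to 6.05), at 5.22 at 1050 cGy and 24 hr (5.64 to 5.77) and at 6.02 at 300 cGy and 120 hr (6.22 to 6.30). The high mouse at 300 cGy and 48 hr had Alas2 at 14.33, and the others were between 12.33 and 13.09.
In the treatment set without agent the lowest female was at 5.87 at 200 cGy and 6 hr (others 5.93 to 5.95), the highest female at 5.90 at 200 cGy and 24 hr (5.53 to 5.57) and the lowest male at 5.71 at 600 cGy and 24 hr (5.96 to 6.01). Under GCSF the lowest female was at 5.68 at 600 cGy and 6 hr (6.02 to 6.09), and under LPS the lowest male was at 5.94 at 300 cGy and 6 hr (6.11 to 6.17). In the small treatment set the highest unirradiated GCSF mouse was at 6.21 (5.81 to 5.93).
Slopes on dose differed between times in 35 of 38 genes, where 92.3% of all genes passed the same test, so the count is at the background. Between LPS and no agent the slope was lower in 11 genes at 6 hr and 18 genes at 24 hr. Of all genes it was lower in 3.95% and 9.13%. The count at 6 hr was 1 to 13 when each replicate number was left out. It was 4 with dim genes left out, where only 21 of the 38 genes were tested. The 6 hr mean under LPS was lower at 600 than at 0 cGy in females and close to level in males.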

How the results depend on the processing

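Over 41 counts of called genes, 492 of 571 alternative values stayed within 1.5 times the reported count. Over 292 values of single genes, 3748 of 4116 alternatives kept direction and side of the threshold, 250 lost the call, 23 gained it and 95 turned the direction, 79 of these past the threshold in neither. The array cannot order dim genes near background. By mean over all arrays the dimmest of the 38 were Cenpe, Bub1, Aurkb, Ect2 and Kif11. They lay at percentiles 3.94, 4.29, 5.81, 7.83 and 9.34 among all genes. The 95 include the 120 and 168 hr slopes without arrays with Alb of 10 or more, where the alternative leaves only 0 to 300 cGy. For the other changes the cause was not tested. Over each dose at 6 hr the calls split as 52 higher and 12 lower (47 and 21 under quantile normalisation), and at 72 hr as 5 and 107 (20 and 75). At single doses of 6 hr 5.26% to 31.6% of the 38 genes rose, against 12.5% to 28.3% of all genes, so the rises were near background. Falls were 0% to 7.89% of the 38 genes and 17.4% to 23.4% of all genes. For the trend at 72 hr 26.3% of all genes rose and 27.1% fell.
With the dim genes left out only 21 of the 38 genes were tested, so under this setting a lower count can come from the genes removed. The number called was 5 for trend at 6 hr (as reported 8) and 9 for trend at 24 hr (as reported 14). It was 17 for trend at 120 hr (as reported 30) and 19 for trend at 168 hr (as reported 30). For trend differs between times it was 20 (as reported 35), and for times differ at 0 cGy 8 (as reported 14). Under the same setting, the number of the 38 genes called was 2 for trend under none at 6 hr (as reported 4), 9 for trend under GCSF at 6 hr (as reported 15), 7 for trend under LPS at 6 hr (as reported 14), 11 for trend under LPS at 24 hr (as reported 21), 10 for LPS vs none at 0 cGy and 6 hr (as reported 25) and 12 for LPS vs none at 0 cGy and 24 hr (as reported 27). Under the same setting, the number of the 38 genes called was 4 for trend under LPS minus none at 6 hr (as reported 11), 8 for trend under LPS minus none at 24 hr (as reported 18), 0 for male vs female at 0 cGy and 6 hr (as reported 3), 2 for trend male minus female at 6 hr (as reported 0), 4 for 150 vs 0 cGy under LPS, small set (as reported 11) and 9 for 600 vs 0 cGy under LPS, small set (as reported 21). Under the same setting, the number of the 38 genes called was 10 for LPS vs none at 0 cGy, small set (as reported 24), 15 for 150 vs 0 cGy at 7 days (as reported 25), 38 for each dose vs 0 cGy at 6 hr (calls summed over doses) (as reported 64), 106 for each dose vs 0 cGy at 120 hr (calls summed over doses) (as reported 161) and 86 for each dose vs 0 cGy at 168 hr (calls summed over doses) (as reported 143). With quantile normalisation, the number of the 38 genes called was 9 for trend at 24 hr (as reported 14), 5 for times differ at 0 cGy (as reported 14), 8 for trend under GCSF at 6 hr (as reported 15), 0 for male vs female at 0 cGy and 6 hr (as reported 3) and 16 for 150 vs 0 cGy at 7 days (as reported 25). With only the groups of the comparison fitted, the number of the 38 genes called was 25 for times differ at 0 cGy (as reported 14), 8 for GCSF vs none at 0 cGy and 24 hr (as reported 0), 8 for male vs female at 0 cGy and 6 hr (as reported 3), 2 for trend male minus female at 6 hr (as reported 0) and 0 for 600 vs 0 cGy under none, small set (as reported 1). With probe sets of a gene averaged, the number of the 38 genes called was 8 for trend under none at 6 hr (as reported 4), 6 for male vs female at 0 cGy and 6 hr (as reported 3) and 0 for 600 vs 0 cGy under none, small set (as reported 1). With arrays centred on their median, the number of the 38 genes called was 9 for times differ at 0 cGy (as reported 14) and 7 for 150 vs 0 cGy under LPS, small set (as reported 11). With replicate number as a block, the number of the 38 genes called was 1 for trend male minus female at 6 hr (as reported 0) and 17 for 150 vs 0 cGy under LPS, small set (as reported 11). Without arrays with Alb of 10 or more, the number of the 38 genes called was 6 for trend at 24 hr (as reported 14). Without the mice labelled 800 cGy at 24 hr, the number of the 38 genes called was 9 for trend at 24 hr (as reported 14). Leaving out each replicate in turn, the count ran from 3 to 6 for trend at 6 hr, 6 to 17 for trend at 24 hr, 4 to 14 for times differ at 0 cGy, 1 to 7 for trend under none at 6 hr, 8 to 14 for trend under GCSF at 6 hr and 9 to 19 for trend under LPS at 6 hr. In the same refits, the count ran from 1 to 13 for trend under LPS minus none at 6 hr, 0 to 2 for male vs female at 0 cGy and 6 hr, 0 to 1 for trend male minus female at 6 hr, 0 to 1 for 150 vs 0 cGy under none, small set, 0 to 2 for 600 vs 0 cGy under none, small set and 0 to 1 for 150 vs 0 cGy under GCSF, small set. In the same refits, the count ran from 1 to 4 for 600 vs 0 cGy under GCSF, small set, 2 to 14 for 150 vs 0 cGy under LPS, small set, 14 to 25 for LPS vs none at 0 cGy, small set, 15 to 26 for 150 vs 0 cGy at 7 days and 41 to 65 for each dose vs 0 cGy at 6 hr (calls summed over doses).
Trend values are log2 slopes per 100 cGy, and other values are log2 differences. With quantile normalisation, the sign turned to -0.00041 for Mki67, trend at 6 hr, 0.008 for Ube2c, trend at 6 hr, 0.0013 for Ube2c, trend under LPS at 6 hr, 0.024 for Nusap1, LPS vs none at 0 cGy and 6 hr, 0.024 for Ube2c, trend under LPS minus none at 6 hr and 0.022 for Ube2c, trend under LPS minus none at 24 hr. Under that setting, the sign turned to 0.066 for Ccnb2, male vs female at 0 cGy and 6 hr, 0.06 for Ube2c, male vs female at 0 cGy and 6 hr, -0.0031 for Ube2c, trend male minus female at 6 hr, 0.0037 for Birc5, trend male minus female at 6 hr and 0.035 for Birc5, 150 vs 0 cGy under none, small set. With probe sets of a gene averaged, the sign turned to -0.0014 for Cdca5, trend at 6 hr and 0.12 for Nusap1, LPS vs none at 0 cGy and 6 hr. With arrays centred on their median, the sign turned to 0.0046 for Ccnb2, trend under GCSF minus none at 6 hr, 0.023 for Ube2c, 150 vs 0 cGy under none, small set, 0.017 for Birc5, 150 vs 0 cGy under none, small set and 0.037 for Ube2c, 600 vs 0 cGy under LPS, small set. With replicate number as a block, the sign turned to -0.031 for Birc5, trend under none at 24 hr, 0.019 for Ube2c, trend under LPS minus none at 24 hr, -0.027 for Mki67, trend male minus female at 24 hr, 0.051 for Ube2c, 150 vs 0 cGy under none, small set, 0.025 for Birc5, 150 vs 0 cGy under none, small set and 0.13 for Mki67, GCSF vs none at 0 cGy, small set. Without arrays with Alb of 10 or more, the sign turned to -0.00069 for Mki67, trend at 6 hr, -0.064 for Ube2c, trend at 24 hr, 0.6 for Mki67, trend at 120 hr, 1.07 for Ccnb2, trend at 120 hr, 0.56 for Ube2c, trend at 120 hr and 0.66 for Birc5, trend at 120 hr. Under that setting, the sign turned to 0.39 for Nusap1, trend at 120 hr, 0.58 for Mki67, trend at 168 hr, 0.78 for Ccnb2, trend at 168 hr, 0.4 for Ube2c, trend at 168 hr, 0.5 for Birc5, trend at 168 hr and 0.17 for Nusap1, trend at 168 hr. Under that setting, the sign turned to 0.11 for Pttg1, trend at 168 hr and 0.021 for Cenpa, trend at 168 hr. Without the mice labelled 800 cGy at 24 hr, the sign turned to -0.068 for Ube2c, trend at 24 hr. With dose on a log2 scale, the sign turned to -0.067 for Ube2c, trend at 24 hr, 0.068 for Birc5, trend at 120 hr, 0.029 for Mki67, trend at 168 hr and 0.042 for Birc5, trend at 168 hr. Leaving out each replicate in turn, values that changed sign ran from -0.0093 to 0.0083 for Mki67, trend at 6 hr, -0.014 to 0.006 for Ube2c, trend at 6 hr, -0.018 to 0.065 for Ube2c, trend at 24 hr, -0.34 to 0.018 for Mki67, 100 vs 0 cGy at 48 hr, -0.033 to 0.012 for Ccnb2, trend under none at 6 hr and -0.048 to 0.0012 for Ccnb2, trend under none at 24 hr. In those refits too, values that changed sign ran from -0.0051 to 0.046 for Birc5, trend under none at 24 hr, -0.034 to 0.0037 for Ccnb2, trend under GCSF at 6 hr, -0.019 to 0.035 for Mki67, trend under GCSF at 24 hr, -0.15 to 0.021 for Ube2c, LPS vs none at 0 cGy and 6 hr, -0.21 to 0.012 for Nusap1, LPS vs none at 0 cGy and 6 hr and -0.004 to 0.08 for Mki67, trend under GCSF minus none at 6 hr. In those refits too, values that changed sign ran from -0.044 to 0.037 for Ccnb2, trend under GCSF minus none at 6 hr, -0.0051 to 0.011 for Ube2c, trend under GCSF minus none at 6 hr, -0.044 to 0.024 for Birc5, trend under GCSF minus none at 6 hr, -0.096 to 0.0074 for Ube2c, trend under LPS minus none at 24 hr, -0.23 to 0.11 for Ccnb2, male vs female at 0 cGy and 6 hr and -0.14 to 0.14 for Birc5, male vs female at 0 cGy and 6 hr. In those refits too, values that changed sign ran from -0.081 to 0.16 for Mki67, male vs female at 0 cGy and 24 hr, -0.12 to 0.012 for Birc5, male vs female at 0 cGy and 24 hr, -0.067 to 0.027 for Mki67, trend male minus female at 6 hr, -0.067 to 0.026 for Ccnb2, trend male minus female at 6 hr, -0.082 to 0.01 for Birc5, trend male minus female at 6 hr and -0.055 to 0.11 for Ube2c, 150 vs 0 cGy under none, small set. In those refits too, values that changed sign ran from -0.2 to 0.2 for Birc5, 150 vs 0 cGy under none, small set, -0.0089 to 0.37 for Mki67, 600 vs 0 cGy under none, small set, -0.047 to 0.099 for Ube2c, 600 vs 0 cGy under none, small set, -0.26 to 0.32 for Ube2c, 150 vs 0 cGy under GCSF, small set, -0.23 to 0.11 for Birc5, 600 vs 0 cGy under GCSF, small set and -0.12 to 0.085 for Ube2c, 600 vs 0 cGy under LPS, small set. In those refits too, values that changed sign ran from -0.19 to 0.045 for Mki67, GCSF vs none at 0 cGy, small set and -0.52 to 0.04 for Birc5, GCSF vs none at 0 cGy, small set. Replicate numbers did not pair the mice (mean correlation of same-numbered deviations 0.017, 0.036, 0.062 and -0.134 in the 4 sets), and the paired fit with the number as a block kept 275 of 292 gene values. In the dose and time set the title code shared by 1 mouse of each group did not pair mice either (mean correlation within a code 0.01 to 0.055), and with that code as a block, over the sets with more than 1 code, 269 of 270 counts and gene values kept direction and side of the threshold. Leaving out a replicate there left out the mice of 1 code.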
